A study of Mus musculus with 4 samples.

Results

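The genes of major histocompatibility complex (MHC) antigen presentation were examined in endothelial cells of the mouse spleen. They were taken as every gene on the array whose name begins with H2-, the mouse MHC prefix, together with 12 named genes of the same pathway. The rule gave 52 of 30195 genes on the array, read by 70 of 39429 probes. Of these 52 genes, 39 gave enough signal to be tested, among 17362 tested genes in all. They comprised 28 class I heavy chain genes (18 tested), 9 genes of the class I light chain, peptide supply and regulation (9 tested), 12 class II genes (9 tested) and Cd1d1 (tested). The remaining 2, H2-Ke2 and H2-Ke6, carry the prefix but encode a prefoldin subunit and a hydroxysteroid dehydrogenase. They are listed with the rest and counted in neither class.

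RNA came from 2 groups of living, CD45-negative, CD31-positive spleen cells from Ackr4GFP/wt mice, in which a green fluorescent protein (GFP) reporter sits at 1 copy of the Ackr4 locus. ACKR4-positive cells carried GFP and ACKR4-negative cells did not, so both groups shared the heterozygous reporter, the enzymatic digestion and the depletion of CD45-bearing cells. ACKR4 is an atypical receptor that binds chemokines without classical signalling. Each of 2 independent sorts pooled cells of several mice and gave 1 array per group, so every group had 2 arrays, and the ages and sexes of the mice were not given in the sources used here. Fluorescence of the reporter, not the ACKR4 protein, set the gate, and a gate on CD31 also admits other CD31-bearing cells.

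All 4 arrays lay on 1 slide and were read in 1 scan. Between 54.9% and 58.3% of probes were well above background, and the 75th percentile of the signal lay between 590 and 949. Median spike-in signal was 847 on ACKR4-negative replicate 1 and 2800 to 3430 on the other arrays. Levels are given below as log2 signal relative to the array's 75th percentile, so that 0 is that percentile. Ackr4 itself stood at -0.21 and 2.55 in ACKR4-positive cells and was not well above background in ACKR4-negative cells, at least 107-fold lower there (limma, adjusted p = 0.0181). All 10 endothelial markers on the list were detected, with Pecam1, the CD31 gene, at 3.36 and 2.58 in ACKR4-positive and 3.41 and 2.84 in ACKR4-negative cells. Of these 10, 2 fell in ACKR4-positive cells, with log2 differences of -2.71 ± 0.44 for Kdr and -5.24 ± 0.87 for Emcn (limma, adjusted p = 0.0459 and 0.0464). Megakaryocyte and platelet markers fell in 8 of 8 tested genes in ACKR4-positive cells, and mural cell markers in 4 of 5. Among all tested genes 3.71% fell. Itga2b, Tubb1, Gp5, Treml1, Gp9 and Myh11 of these lists passed the detection filter through ACKR4-negative cells only, so the filter favoured a fall. In such bulk samples fewer cells of a type and less RNA per cell cannot be told apart.

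Class I molecules are made of a polymorphic heavy chain and the light chain beta-2 microglobulin. They display peptides that the proteasome cuts in the cytosol and that the TAP transporter carries into the endoplasmic reticulum, and almost every nucleated cell makes them. Class II molecules pair an alpha with a beta chain and travel with the invariant chain, encoded by Cd74, to lysosomal compartments, where they bind peptides of ingested proteins. They are a hallmark of B cells, dendritic cells and macrophages, and endothelium can acquire them under interferon-gamma through the transactivator CIITA.

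The array reads each gene through probes of 60 bases. Class I heavy chain genes are close copies of one another, so the probes that bear on how far genes can be told apart are shown, 5′ to 3′ as the files give them. Among the 46 tested probes of the whole set, class II and supply genes included, 2 pairs from different genes shared an unbroken run of at least 20 bases. Capitals mark the shared run in the longest such pair, which is 29 bases long and joins the second H2-K1 probe with the H2-T23 probe.
H2-K1, second probe (chromosome 17, 34133984 to 34134043, mm9): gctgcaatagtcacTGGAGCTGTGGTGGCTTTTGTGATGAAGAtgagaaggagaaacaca
H2-T23 (chromosome 17, 36167338 to 36167574, mm9, the span the files give): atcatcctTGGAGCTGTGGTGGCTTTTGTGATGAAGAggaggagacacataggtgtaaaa
The second pair joined the other H2-K2 probe with the H2-Q7 probe through 28 bases. The probes that stood for H2-K2 and H2-Q7 here shared 19 bases, in capitals.
H2-K2 (chromosome 17, 34111920 to 34111979, mm9): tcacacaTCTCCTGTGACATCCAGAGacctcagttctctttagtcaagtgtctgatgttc
H2-Q7 (chromosome 17, 35580315 to 35580374, mm9): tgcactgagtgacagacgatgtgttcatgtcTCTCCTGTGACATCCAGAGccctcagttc
How much RNA of one such gene binds the probe of another was not measured. Readings of the second H2-K1 probe and of the H2-T23, H2-K2 and H2-Q7 probes are therefore uncertain as to the gene. The H2-Q10 probe used here is uncertain too. It shared 19 bases with the second H2-Q2 probe, with 5 mismatches over 50 aligned bases. H2-K1 levels below come from its brighter probe, which held no such run, though its binding of other RNA was not measured either. None of the tested class II probes and none of the peptide supply probes shared such a run with a probe of another gene of the set. Probes were compared with probes only, so a probe without such a run may still match RNA of another gene. Outside the set, 7 other probes on the array shared such a run with a tested probe. The genes of the set concerned were H2-Q8, H2-T23, H2-K1, H2-Q2 and Ciita, so their readings carry the same uncertainty, for H2-K1 through its second probe.

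Probes for H2-T24 and Cd1d1, on which the results turn, are shown for a second reason. Capitals here mark stretches of 16 bases that recur in the RefSeq promoter windows (GRCm38.p6) of other genes.
H2-T24, brighter probe (chromosome 17, 36142640 to 36142699, mm9): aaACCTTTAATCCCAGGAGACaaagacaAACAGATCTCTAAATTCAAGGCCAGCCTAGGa
H2-T24, second probe (chromosome 17, 36143605 to 36143664, mm9): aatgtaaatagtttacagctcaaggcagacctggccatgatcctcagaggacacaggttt
Cd1d1 (chromosome 3, 86799791 to 86799850, mm9): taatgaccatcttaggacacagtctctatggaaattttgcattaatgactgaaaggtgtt
Recurring stretches covered 50 bases of the brighter H2-T24 probe, found in 10 promoter windows of other genes. The second H2-T24 probe and the Cd1d1 probe held none, like 28 of the 46 tested probes. The probes for Ciita and H2-Q4 had stretches in 29 and 39 windows of other genes. Whether these probes also bound RNA of other genes was not measured.

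The question was whether ACKR4-positive endothelial cells differ from ACKR4-negative ones in these genes. None of the 39 tested genes passed (limma on all tested genes, Benjamini-Hochberg adjusted p under 0.05), where 5.62% of all tested genes did, 1.91% upward and 3.71% downward. At an unadjusted p under 0.05, 4 genes were higher and 1 was lower in ACKR4-positive cells, against 16.3% of all tested genes in either direction. Setting the sort number as a block in the fit called 4 of the 39, with 15.3% of all tested genes called. H2-T24 and H2-M9 rose in that fit, beside 6.75% of all tested genes, and Cd1d1 and H2-Ob fell, beside 8.55%. H2-Ob had passed the detection filter through ACKR4-negative cells only, so the filter favoured a fall, and it is given below as a value.

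**Figure D1:**
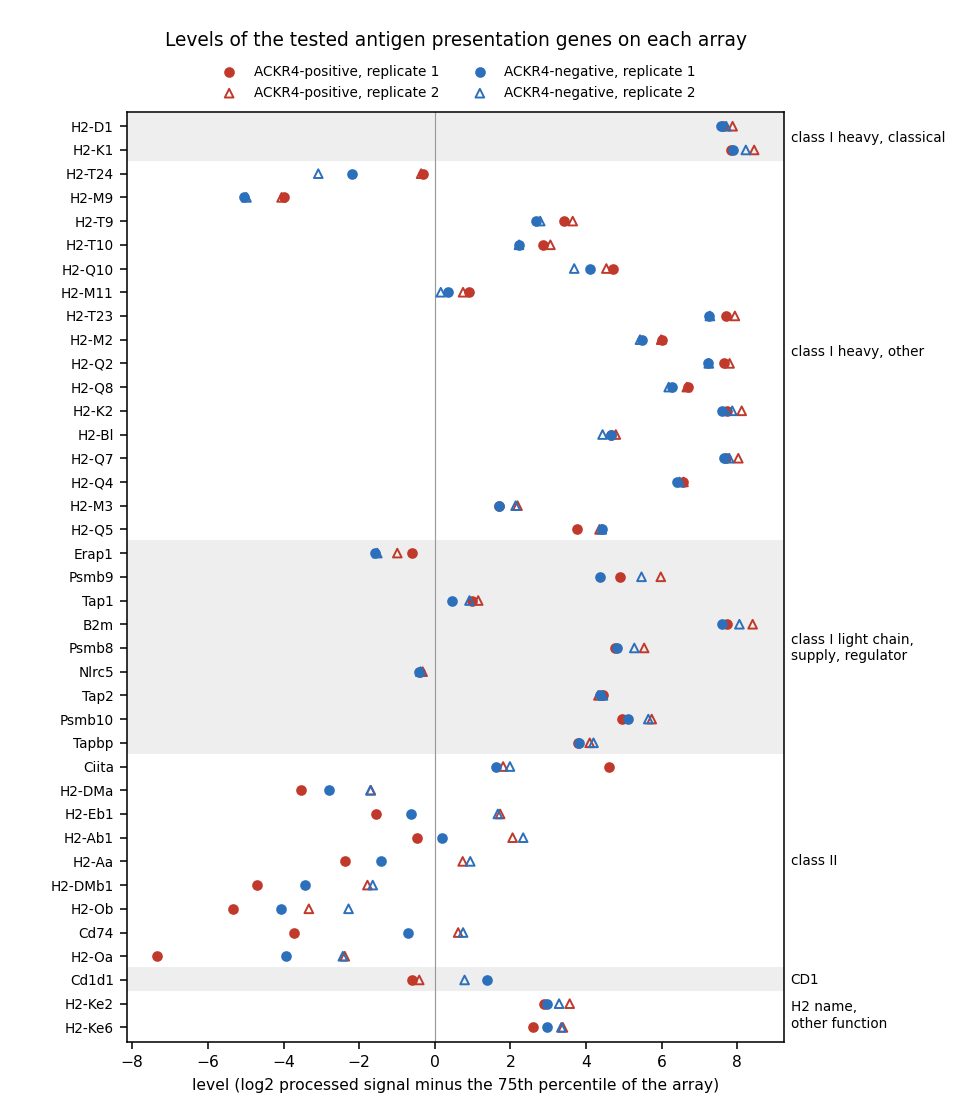
Level of each of the 39 tested genes on the 4 arrays (horizontal axis, log2 signal relative to the array's 75th percentile), grouped by role, with red for ACKR4-positive and blue for ACKR4-negative cells, circles for replicate 1 and triangles for replicate 2. The 4 points lie close together for most class I genes, while circles lie left of triangles for every class II gene but Ciita.

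Among class I genes, the classical heavy chains had like levels in the 2 groups. H2-K1, which presents peptides to CD8 T cells, stood at 7.84 and 8.45 in ACKR4-positive cells and at 7.89 and 8.23 in ACKR4-negative cells (replicates 1 and 2). H2-D1, the other classical heavy chain on the array, stood at 7.62 and 7.88 against 7.57 and 7.71. The groups overlapped for both genes, and sort 2 was the higher sort in both groups. The difference of ACKR4-positive from ACKR4-negative cells was 0.08 on the log2 scale for H2-K1 (95% interval -0.84 to 1.00, adjusted p = 0.960) and 0.11 for H2-D1 (95% interval -0.63 to 0.84, adjusted p = 0.924). Changes of the signal beyond about 2-fold in either direction lay outside both intervals. Both probes were among the brightest of the set. Whether so bright a signal still rises in proportion to RNA was not tested, so the intervals do not bound the RNA itself.

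Beta-2 microglobulin and most peptide supply genes had differences smaller than their errors. B2m, the light chain gene, had levels of 7.72 and 8.41 in ACKR4-positive and 7.61 and 8.06 in ACKR4-negative cells, a log2 difference of 0.23 ± 0.38 (SE, n = 2 arrays per group). Its groups overlapped and both arrays of sort 2 were above both of sort 1. The 75th percentile subtracted was 949 and 590 on the ACKR4-positive arrays and 770 and 656 on the ACKR4-negative arrays (replicates 1 and 2). Its part in the sort shifts of B2m, H2-K1 and H2-D1 was not tested. With quantile normalization the B2m difference was 0.53. Neither transporter gene was called. Tap1 stood at 0.98 and 1.15 against 0.45 and 0.92, and Tap2 at 4.46 and 4.33 against 4.37 and 4.45, in ACKR4-positive and ACKR4-negative cells. Tapbp, which encodes the loading chaperone tapasin, stood at 3.80 and 4.10 in ACKR4-positive and 3.81 and 4.20 in ACKR4-negative cells. Only Tap1 separated the groups among these 3, with a log2 difference of 0.38 ± 0.31 (adjusted p = 0.695).

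Immunoproteasome subunits, which replace the constitutive proteasome subunits and favour peptides for class I, differed more between sorts than between groups. Psmb9 stood at 4.89 and 5.98 in ACKR4-positive and 4.38 and 5.47 in ACKR4-negative cells. For Psmb8 the levels were 4.76 and 5.54 against 4.83 and 5.28, and for Psmb10 they were 4.95 and 5.74 against 5.10 and 5.65. In all 3, both arrays of sort 2 lay above both of sort 1, by a mean of 0.61 to 1.09, and the groups overlapped. Log2 differences between the groups were 0.51 ± 0.57, 0.10 ± 0.40 and -0.03 ± 0.41 for Psmb9, Psmb8 and Psmb10. A second Psmb9 probe, not well above background on any array, was not used.

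Nlrc5, the transactivator of class I genes, was at -0.38 and -0.32 in ACKR4-positive and at -0.42 and -0.38 in ACKR4-negative cells. Its log2 difference was 0.05 ± 0.26. Erap1, which trims peptides in the endoplasmic reticulum, stood at -0.59 and -0.99 in ACKR4-positive cells, above both ACKR4-negative values of -1.58 and -1.52. That log2 difference of 0.76 ± 0.29 did not pass (adjusted p = 0.313). Over the 9 light chain, supply and regulator genes the median log2 difference was 0.10, with a median of 0.04 over all tested genes.

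Nonclassical and other heavy chain genes leaned towards ACKR4-positive cells. Of the 16 tested, 12 had both ACKR4-positive arrays above both ACKR4-negative arrays, 1 (H2-Q5) had both below and 3 overlapped, where 23.3% of all tested genes were so placed above and 21.6% below. Their log2 differences had a median of 0.51, with 0.44 from the first sort alone and 0.56 from the second. Whether RNA of one of these genes also bound the probe of another was not measured. Under the fit without a block none of them passed.

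H2-T24, a heavy chain gene of the T region, had the highest log2 difference of the set. It stood at -0.32 and -0.36 in ACKR4-positive cells and at -2.19 and -3.08 in ACKR4-negative cells. The groups were well apart, and the sorts differed in ACKR4-negative cells only. The log2 difference was 2.29 ± 0.39, that is 4.90-fold (95% interval of the log2 difference 1.25 to 3.34). Its adjusted p was 0.0515 without a block and 0.00669 with the sort as a block. Other settings fell on either side of the threshold, with an adjusted p of 0.0346 after normexp background correction, 0.0494 from the authors' deposited values, 0.0497 with a trended prior and 0.0511 to 0.0843 in the other settings with all 4 arrays and no block. Leaving out single arrays kept the difference between 1.85 and 2.74, with adjusted p of 0.0730 to 0.183. Read from its second probe, which holds no recurring stretch, H2-T24 stood at -1.06 and -2.32 in ACKR4-positive and -3.51 and -4.93 in ACKR4-negative cells. That probe gave 2.53 ± 0.68, with an adjusted p of 0.155 without and 0.00207 with the block. It was well above background on 1 of the 2 ACKR4-negative arrays. The second probe thus passed the detection filter through ACKR4-positive cells only, so the filter favoured a rise.

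H2-M9 belongs to the M region, whose M1, M9 and M10 genes are known from vomeronasal sensory neurons. Its levels were low, at -3.99 and -4.05 in ACKR4-positive and at -5.05 and -4.98 in ACKR4-negative cells. The groups did not overlap and the 2 sorts were alike. The log2 difference of 1.00 ± 0.26 passed with the block only (adjusted p = 0.145 without and 0.0373 with it), and normexp background correction took it to 0.29. A second H2-M9 probe was not well above background on any array.

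Several genes with known ligands or receptors had smaller differences. H2-T23 encodes Qa-1, a ligand of NK cell receptors, and stood at 7.70 and 7.94 in ACKR4-positive and 7.26 and 7.28 in ACKR4-negative cells. Its log2 difference was 0.55 ± 0.27 (adjusted p = 0.459). H2-T10, whose product is bound by gamma-delta T cells, differed by 0.74 ± 0.27, and H2-T9 by 0.80 ± 0.27. These 2 genes were among the 4 higher ones at an unadjusted p under 0.05, with H2-T24 and H2-M9. H2-M3, which presents formylated bacterial peptides, had levels of 1.70 and 2.19 in ACKR4-positive and 1.70 and 2.14 in ACKR4-negative cells, a log2 difference of 0.03 ± 0.34. H2-Q7, a Qa-2 gene, differed by 0.16 ± 0.29, and H2-Q5, the gene below, by -0.35 ± 0.33.

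The other heavy chain genes tested were H2-Q10, H2-M11, H2-M2, H2-Q2, H2-Q8, H2-K2, H2-Bl and H2-Q4, with log2 differences of 0.73 for H2-Q10 down to 0.12 for H2-Q4. Probes of one gene did not always give the same reading. One H2-M2 probe was at 6.00 and 5.99 in ACKR4-positive and 5.48 and 5.43 in ACKR4-negative cells, while the other was not well above background on any array. The H2-Q10 probe used stood at 4.71 and 4.54 in ACKR4-positive and 4.11 and 3.69 in ACKR4-negative cells. Its second probe was far dimmer, at -4.78 and -4.68 against -5.63 and -4.39, and well above background on 1 ACKR4-negative array. That probe gave a log2 difference of 0.28 in place of 0.73. Heavy chain genes below the detection filter were H2-M1, H2-M10.1, H2-M10.2, H2-M10.3, H2-M10.4, H2-M10.6, H2-M5, H2-Q1, H2-T18 and H2-T3, and of these 10, H2-M5 and H2-T18 were well above background on 1 array each. H2-Ke2 and H2-Ke6 differed by 0.09 ± 0.36 and -0.16 ± 0.39.

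Cd1d1 presents lipids to natural killer T cells and is a class I-like gene outside the MHC. It stood at -0.60 and -0.41 in ACKR4-positive cells, below both ACKR4-negative values of 1.38 and 0.79. The log2 difference was -1.59 ± 0.33 (0.331 of the ACKR4-negative level), with an adjusted p of 0.0830 without and 0.0194 with the block. A second probe gave -1.62 ± 0.48, with an adjusted p of 0.192 without and 0.0171 with the block.

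**Figure D2:**
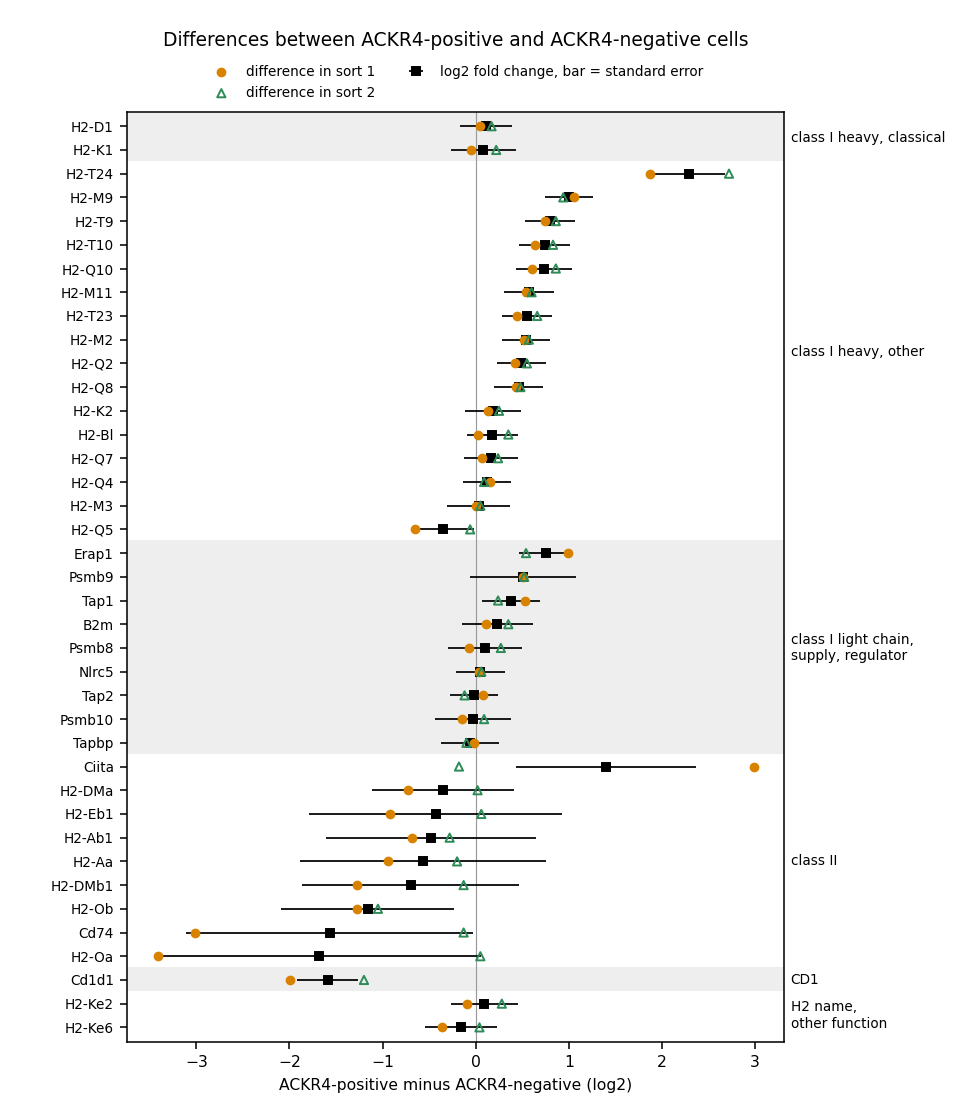
Log2 difference of ACKR4-positive from ACKR4-negative cells for each of the 39 tested genes (black squares, bars are standard errors of the limma fit, n = 2 arrays per group), with the difference in sort 1 (filled circles) and sort 2 (open triangles). Standard errors run from 0.26 to 0.57 for class I genes and from 0.76 to 1.74 for class II genes, and the 2 sorts lie far apart for Cd74, H2-Oa and Ciita.

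Class II genes varied more between sorts than between groups. Cd74, the invariant chain gene, stood at -3.71 and 0.62 in ACKR4-positive cells and at -0.70 and 0.75 in ACKR4-negative cells (replicates 1 and 2). The ACKR4-positive array of sort 1 was by far the lowest, and both arrays of sort 2 were close together. H2-Aa, the alpha chain gene of the I-A molecule, stood at -2.37 and 0.74 in ACKR4-positive and -1.42 and 0.94 in ACKR4-negative cells. Its partner H2-Ab1 stood at -0.48 and 2.06 in ACKR4-positive and 0.20 and 2.34 in ACKR4-negative cells.

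The I-E beta chain gene H2-Eb1 was at -1.55 and 1.73 in ACKR4-positive and at -0.63 and 1.67 in ACKR4-negative cells. Each of these 4 genes was higher in both arrays of sort 2, and the groups overlapped in each. Log2 differences between the groups were -1.57 ± 1.54 for Cd74, -0.57 ± 1.32 for H2-Aa, -0.48 ± 1.13 for H2-Ab1 and -0.43 ± 1.36 for H2-Eb1. Without the block the 95% intervals ran from -5.66 to 2.52 for Cd74 and from -3.48 to 2.52 for H2-Ab1. With the sort as a block they ran from -3.29 to 0.16 for Cd74 and from -1.06 to 0.10 for H2-Ab1, and neither gene passed (adjusted p = 0.204 and 0.240). Within sort 1 the differences of Cd74, H2-Aa, H2-Ab1 and H2-Eb1 were -3.01, -0.94, -0.68 and -0.92, and within sort 2 they were -0.13, -0.20, -0.28 and 0.06.

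The accessory genes of peptide loading followed the chains. H2-DMa and H2-DMb1 encode H2-M (DM), which exchanges peptides on class II. H2-DMa stood at -3.53 and -1.69 in ACKR4-positive and -2.80 and -1.70 in ACKR4-negative cells. H2-DMb1 stood at -4.70 and -1.78 in ACKR4-positive and -3.43 and -1.64 in ACKR4-negative cells. Sort 2 was the higher sort for both genes, and their log2 differences between groups were -0.35 ± 0.76 and -0.70 ± 1.17. A second H2-DMb1 probe was not well above background on any array.

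H2-Oa and H2-Ob encode H2-O (DO), a modulator of DM. H2-Ob stood at -5.33 and -3.33 in ACKR4-positive and -4.06 and -2.28 in ACKR4-negative cells, lower in ACKR4-positive cells within each sort. With the sort as a block its log2 difference was -1.16 ± 0.21 (adjusted p = 0.0247), and without it the error was 0.93 (adjusted p = 0.693). Normexp background correction took the difference to -0.59, and leaving out single arrays moved it between -2.16 and -0.16. H2-Oa stood at -7.34 and -2.38 in ACKR4-positive and -3.93 and -2.43 in ACKR4-negative cells, a log2 difference of -1.68 ± 1.74. Both genes entered the test through ACKR4-negative cells, being well above background on 1 ACKR4-positive array each. Of 2 further H2-Ob probes, 1 was well above background on no array and the other on 1 array per group, and their log2 differences were -0.02 and -0.19.

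Ciita, the class II transactivator gene, ran against the others. Its levels were 4.61 and 1.81 in ACKR4-positive and 1.62 and 1.99 in ACKR4-negative cells. The ACKR4-positive array of sort 1 stood above the other 3, on the same RNA in which Cd74, H2-Aa and H2-Oa were lowest. The log2 difference was 1.40 ± 0.97 (adjusted p = 0.628), with 2.99 for the arrays of sort 1 and -0.18 for those of sort 2. Leaving out ACKR4-positive replicate 2 gave 2.80 (adjusted p = 0.0410). Stretches of this probe recur elsewhere, as given above, so whether it reads Ciita RNA alone was not settled. The class II genes H2-DMb2, H2-Ea-ps and H2-Eb2 were not tested, with H2-DMb2 well above background on 1 array and the other two on none.

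**Figure D3:**
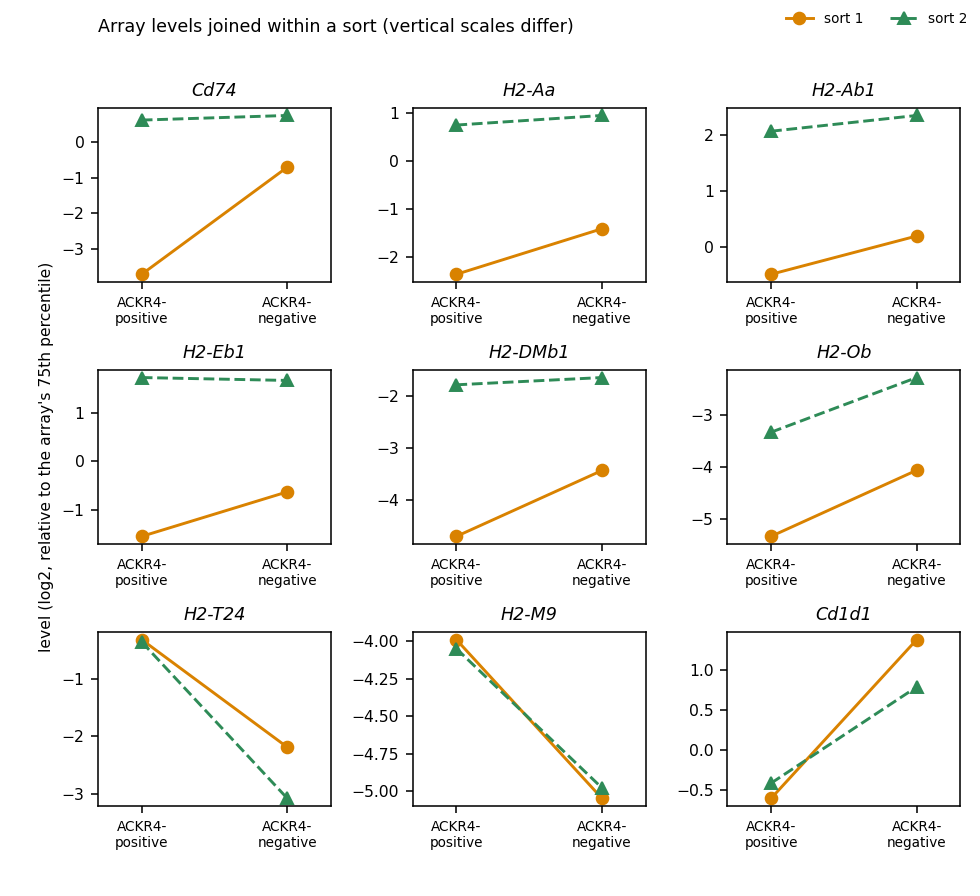
Levels of 6 class II genes, H2-T24, H2-M9 and Cd1d1 (vertical axis, log2 relative to the array's 75th percentile, with a scale of its own in each panel) in ACKR4-positive cells on the left and ACKR4-negative cells on the right, joined within sort 1 (circles) and sort 2 (triangles). Class II lines lie apart by sort, with H2-Aa at 0.74 and 0.94 in sort 2 and at -2.37 and -1.42 in sort 1, while H2-T24, H2-M9 and Cd1d1 slope the same way in both sorts.

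Set side by side, the 27 tested class I genes (heavy chains, light chain, supply and regulator) had a median log2 difference of 0.23, and the 9 tested class II genes one of -0.57. For class I the sorts taken alone gave medians of 0.15 (sort 1) and 0.35 (sort 2). For class II they gave -0.94 (sort 1) and -0.13 (sort 2), and leaving aside the Ciita probe the class II median was -0.64. Leaving out single arrays, which breaks the pairing by sort, moved the class II median between -2.13 and 0.76, while both medians within a sort were below 0. The class I median stayed between 0.09 and 0.47. Of the class I genes 20 were higher and 2 lower in both sorts, and of the class II genes 0 were higher and 5 lower, where 38.6% of all tested genes were higher and 34.5% lower in both sorts. No test of class I against class II was made, since genes of a class are not replicates.

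For class II genes the sorts lay further apart than the groups. Averaged over both groups, class II genes were higher in sort 2 than in sort 1 by a median of 2.35 (log2), and class I genes by a median of 0.13, with 0.15 over all tested genes. In 8 of the 9 class II genes both arrays of sort 2 lay above both of sort 1, as did 11 of the 27 class I genes, where 29.9% of all tested genes were so placed. The 8 genes had shifts of 1.47 to 3.23, and the exception was Ciita at -1.22. Sort is a set of animals, a digestion and a sort at once, which cannot be told apart here.

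Most tested B cell markers, and part of the macrophage and dendritic cell markers, moved with the class II genes. Of 8 B cell markers 7 were tested. Among these 7, 6 were higher on both arrays of sort 2, where 29.9% of all tested genes were so placed. Their median shift was 1.98, and none was called between the groups. Cd79b, a chain of the B cell receptor, stood at -6.98 and 0.55 in ACKR4-positive and -3.09 and 0.10 in ACKR4-negative cells. Ms4a1, which encodes CD20, stood at -6.87 and -0.56 in ACKR4-positive and -3.67 and -1.18 in ACKR4-negative cells. As with Cd74, the ACKR4-positive array of sort 1 was the lowest for both. Summed on the linear scale, with the array's 75th percentile as 1, B cell markers came to 5.30 and 21.1 in ACKR4-positive and 3.03 and 13.1 in ACKR4-negative cells. Cd22 alone made up 84.0% to 94.2% of this sum, so it does not stand for the list. Blk, another B cell marker, was not detected on any array.

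Macrophage and monocyte markers were higher on both arrays of sort 2 in 5 of 8 tested genes, against 29.9% of all tested genes. Their median shift was 1.17. Their summed level was 28.6 and 87.6 in ACKR4-positive and 35.6 and 53.0 in ACKR4-negative cells, of which the Itgam probe made up 56.5% to 93.8%, and Vsig4 was not detected. C1qa, a complement chain made by macrophages, stood at -6.40 and -2.07 in ACKR4-positive and -3.88 and -1.02 in ACKR4-negative cells. Its mean shift of 3.59 was the largest of this list, while Mrc1 and Csf1r shifted by -0.69 and -0.13. Of 8 dendritic cell markers 4 were tested, and Itgax and Xcr1 were not detected. Of the 4, 2 were higher on both arrays of sort 2, too few to set against the 29.9%. Zbtb46, also tested, had a mean shift of -0.38. The summed level of the dendritic cell markers was 45.8 and 152 in ACKR4-positive and 56.8 and 141 in ACKR4-negative cells. The Siglech probe made up 97.4% to 99.5% of it. Ptprc, the gene of CD45 by which leukocytes were gated out, did not pass the detection filter. The part of these cells in the class II values was not tested.

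**Figure D4:**
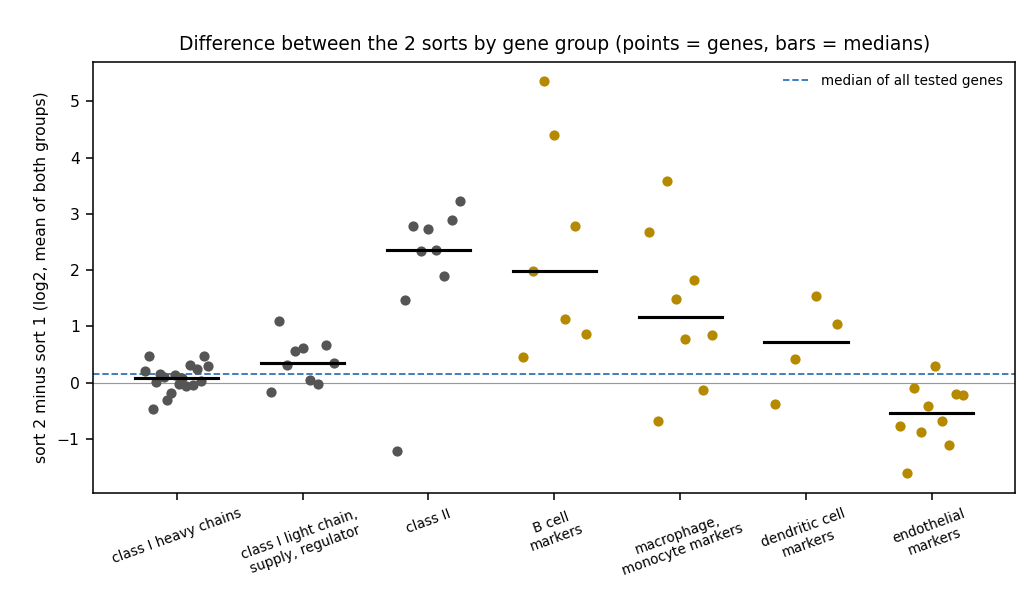
Difference of sort 2 from sort 1 (vertical axis, log2, mean over both groups) for each tested gene of the 3 antigen presentation groups (grey) and of 4 marker lists (ochre), with black bars for medians and a dashed line for the median of all tested genes. Class II genes other than Ciita lie between 1.47 and 3.23 and B cell markers have a median of 1.98, while class I heavy chains lie between -0.47 and 0.47.

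Genes that serve the pathway without belonging to the set were mostly alike in the 2 groups. Of 9 lysosomal genes of class II processing, 1 fell and none rose. This was Lgmn, the gene of the asparagine-specific protease legumain, at 3.08 and 2.31 in ACKR4-positive and 6.03 and 5.69 in ACKR4-negative cells, a log2 difference of -3.17 ± 0.38 (adjusted p = 0.0220). Ctsd, a cathepsin gene, was at 5.51 and 5.73 in ACKR4-positive and 5.01 and 5.17 in ACKR4-negative cells (adjusted p = 0.484).

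All 6 loading chaperone genes, all 6 proteasome genes, the 13 tested of 14 regulators and the 4 tested of 7 co-stimulatory ligands had no call in either direction. The lowest p within each of these 4 lists were those of Canx, the calnexin gene, at 0.71 ± 0.35, of Psmb7, a constitutive proteasome subunit, at -0.57 ± 0.37, of Ifngr1, a chain of the interferon-gamma receptor, at -0.86 ± 0.28, and of Cd80 at 0.39 ± 0.29. Rfx5, a factor that binds class II promoters, was not detected on any array, and its partner Rfxank differed by -0.68 ± 0.27.

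Other class I-like molecules had none called of 5 tested (of 6 listed) without the block and 4 with it, where the block called 15.3% of all tested genes. Cd1d2, the paralogue of Cd1d1, stood at -1.01 and -1.31 in ACKR4-positive and 0.97 and 0.05 in ACKR4-negative cells, a log2 difference of -1.67 ± 0.41 (adjusted p = 0.125 without and 0.0128 with the block). Procr, the endothelial protein C receptor gene, and Hfe, a regulator of iron uptake, differed by -1.21 ± 0.31 and -1.38 ± 0.37 (adjusted p = 0.0357 and 0.0332 with the block). Mr1, which presents vitamin B metabolites to T cells, differed the other way by 1.27 ± 0.39 (adjusted p = 0.0176 with the block). Their adjusted p without the block was 0.137, 0.149 and 0.212.

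Promoters of both classes are known to share an X and a Y box, bound by RFX and NF-Y factors, and class I promoters to carry a kappaB-like enhancer and an interferon-stimulated response element in addition. RefSeq promoter windows (GRCm38.p6) were listed for 25 of the 39 tested genes, and the 250 bases before the start were searched on both strands. A Y box (CCAAT) was found in 10 of 11 class I heavy chain genes, 4 of 7 supply genes and 6 of 6 class II genes, against 33.8% of 32851 windows. The kappaB-like enhancer motif, in capitals near the left end of the H2-D1 window, was in the windows of H2-K1 and H2-D1 and of no other listed gene of the set, against 0.0457% of all windows. A core of the X1 box, ACAGATG, was in 2 of 6 class II genes, 1 of 7 supply genes (Psmb10) and 0 of 11 class I heavy chain genes, against 4.15% of windows. The interferon-stimulated response element was in H2-T23 and B2m, against 2.98% of windows. These matches are letters in a window and not measured sites, and 3 of the genes had more than 1 window.

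The 200 bases before the start are shown for a class I heavy chain, the light chain and 2 class II genes, with the motifs in capitals.
H2-D1 (chr17:35262894-35263093, plus strand): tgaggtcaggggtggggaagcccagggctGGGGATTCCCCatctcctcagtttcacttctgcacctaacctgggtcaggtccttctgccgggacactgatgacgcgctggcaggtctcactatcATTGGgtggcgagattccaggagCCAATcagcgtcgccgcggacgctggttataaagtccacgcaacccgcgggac
B2m (chr2:122147487-122147686, plus strand): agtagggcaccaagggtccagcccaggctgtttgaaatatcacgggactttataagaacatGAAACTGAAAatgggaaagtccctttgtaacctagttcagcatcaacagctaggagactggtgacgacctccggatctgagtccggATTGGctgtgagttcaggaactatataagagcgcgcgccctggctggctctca
H2-Aa (chr17:34287824-34288023, minus strand): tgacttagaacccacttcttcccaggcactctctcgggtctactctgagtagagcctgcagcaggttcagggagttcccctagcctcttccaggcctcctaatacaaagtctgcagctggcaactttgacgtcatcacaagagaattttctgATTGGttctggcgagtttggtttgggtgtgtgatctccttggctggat
H2-Eb1 (chr17:34305667-34305866, plus strand): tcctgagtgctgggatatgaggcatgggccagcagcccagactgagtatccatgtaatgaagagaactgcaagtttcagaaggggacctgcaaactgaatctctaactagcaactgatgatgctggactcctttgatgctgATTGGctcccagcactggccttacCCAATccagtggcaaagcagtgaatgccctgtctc
All 4 windows hold a Y box, ATTGG being its reverse complement. B2m and H2-Eb1 differed between sorts by 0.57 and 2.79 (log2), for B2m with the limit on scaling given above.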

How the data were processed

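Spot intensities are the authors' output of Agilent Feature Extraction, version 10.7.3.1 per the submitters' processing notes. Per the file headers, the processed intensity is background-subtracted and detrended within each array and not scaled between arrays. The authors' deposited table of linear intensities served as an alternative. Per the labels, 6 to 20 ng of RNA was amplified once.

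Here, log2 intensities of a probe's unflagged spots were averaged, less the array's 75th percentile. Testing required more than 50% of a probe's spots well above background on each array of 1 group or both, and the brightest probe stood for a gene. Groups were compared with limma 3.58.1 (2-sided, lmFit then eBayes; R 4.3.3), and p-values were adjusted by Benjamini and Hochberg's method across the 17362 tested genes. Errors after ± are standard errors. Only 2 arrays per group limit the precision, and each array pools mice. Figures were drawn with Python 3.11.15 and matplotlib 3.10.9. Gene names came from a RefSeq list (GRCm38.p6), which matched 27508 of 39429 probes by accession. Probe coordinates are those of the files, on mm9. The procedure was tested on simulated data.

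Replicate numbers were taken as the sort, because both arrays of a number carry the same mouse number in the titles. Deviations of same-numbered arrays from their group means correlated at 0.605. The genes, roles and lists were chosen with earlier results of these data known. Named genes followed a rule that covers every tested gene of the set and, in pathway lists, those called or with the lowest p. Alternatives covered background correction, scaling, filters, probes, outlier spots, prior, the replicate block and leaving out each array. Readings without the Ciita probe and from the other probes of H2-T24 and Cd1d1 were added after seeing the data. One probe sequence is not reported here.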

Additional observations from a re-analysis of the deposited data

How the results depend on the processing

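Counts of antigen presentation genes called stayed at 0 with quantile normalization, median centring, no filter, the stricter filter, the mean of probes and outlier spots kept. The count was 1 with normexp, the deposited values and a trended prior, each time H2-T24, and 4 with the replicate block. It was 0 to 1 when single arrays were left out, the 1 being Ciita. The block changed no other call of the set. Over all genes the count of 976 was 441 with the stricter filter, which tests fewer genes, 2656 with the replicate block and 387 to 892 without single arrays. The class I median of 0.23 was 0.51 with quantile normalization, where the cause was not tested, and 0.09 to 0.47 without single arrays. The class II median of -0.57 ranged from -2.13 to 0.76 without single arrays.

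Quantile normalization turned Tap2, Psmb10 and Tapbp to 0.10, 0.09 and 0.01, and median centring to 0.05, 0.03 and 0.01, all small beside their errors. Without single arrays the direction of 20 genes turned. Class II ranges were -3.74 to 0.60 for Cd74, -4.16 to 0.80 for H2-Oa, -2.13 to 0.98 for H2-Aa, -1.75 to 0.79 for H2-Ab1, -2.07 to 1.21 for H2-Eb1, -1.27 to 0.57 for H2-DMa and -2.16 to 0.76 for H2-DMb1, with the positive values without ACKR4-positive replicate 1. Heavy chain ranges were -0.22 to 0.38 for H2-K1, -0.02 to 0.24 for H2-D1, 0.00 to 0.38 for H2-K2, -0.01 to 0.32 for H2-Q7 and -0.22 to 0.27 for H2-M3. Those of the other genes were -0.12 to 0.57 for B2m, -0.03 to 1.06 for Psmb9, -0.29 to 0.49 for Psmb8, -0.43 to 0.36 for Psmb10, -0.09 to 0.04 for Tap2, -0.26 to 0.13 for Tapbp, -0.25 to 0.44 for H2-Ke2 and -0.55 to 0.23 for H2-Ke6.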
